A study of Mus musculus with 4 samples.

Results

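The insulin-like growth factor (IGF) family was examined in mouse synovium as a set of 10 genes, taken by name from the 22180 genes that could be measured: the ligands Igf1 and Igf2, the receptor Igf1r and the binding proteins Igfbp1 to Igfbp7. All 10 were measured, each by 1 probe set that is assigned to a single gene, so no choice between probe sets was needed. Synovium, the tissue that lines the joint, was taken from around the ankle of male C57BL/6J mice given serum transfer arthritis, a model in which serum from arthritic K/BxN mice carries autoantibodies that inflame the joints of the recipient. Arthritic mice, aged 12 weeks at induction, received 150 microlitres of the serum into the peritoneum on days 0, 2 and 7, and nonarthritic mice received the same volume of saline. The 2 groups were arthritic synovium on day 10, labelled as peak inflammation, and nonarthritic synovium, labelled as day 0, with 2 pools each. An arthritic pool held tissue of 10 mice and a nonarthritic pool that of 3 mice, and each pool was run on 1 Affymetrix MoGene 2.0 ST array. The age and the injection days given above are recorded identically for both groups. The label of serum source strain reads K/BxN for the nonarthritic pools too, which conflicts with the saline in the protocol. Because animals were pooled, the spread between mice was not measured, and the groups also differ in pool size and labelled day.

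IGF1 and IGF2 are small secreted hormones related to insulin that act through the receptor tyrosine kinase IGF1R, whose signal runs through insulin receptor substrates, PI3 kinase and AKT to cell growth and survival. Most of the ligand outside cells is held by the binding proteins, which lengthen its life and keep it from the receptor until proteases such as pappalysin cut them. In joints IGF1 is known as a factor that drives cartilage cells to make matrix, and fibroblasts, macrophages and cartilage cells are among its local sources.

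Among the 10 genes, binding proteins changed and ligands and the receptor did not pass the test. Igfbp4 rose 2.08-fold and Igfbp3 rose 1.74-fold in arthritic synovium, and Igfbp6 fell 2.12-fold. Neither Igf1, Igf2, Igf1r nor any of the other 4 binding proteins passed (limma with Benjamini-Hochberg adjustment over all genes, adjusted p under 0.05). The 3 calls among 10 genes stand beside 15.3% of all genes called: 8.72% were higher and 6.62% were lower. Among the 13804 genes left by a filter on dim genes, 2345 rose and 1586 fell. The filter removed Igfbp1, and of the members left 2 rose and 1 fell. All genes thus include many more dim genes than the members do, so 3 of 10 and 15.3% are not like for like. Both arthritic pools lay on 1 side of both nonarthritic pools for 5 of the 10 genes, a share near the 56.4% of all genes for which this was so.

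**Figure D1:**
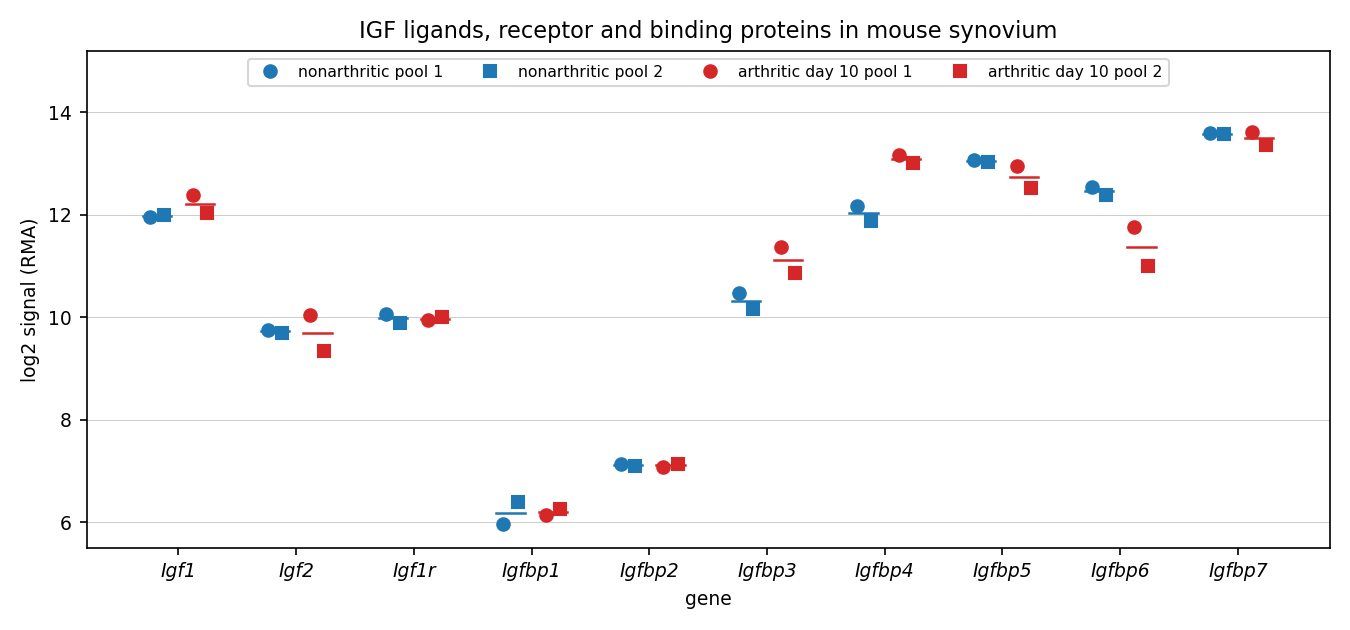
Log2 signal (vertical axis) of the 10 genes on each of the 4 arrays, with circles for pool 1 and squares for pool 2 of each group, blue for nonarthritic and red for arthritic day 10, and a line at each group mean. The red points stand above the blue ones for Igfbp3 and Igfbp4 and below them for Igfbp6, whose arthritic pools read 11.76 and 11.00. Heights are not comparable between genes.

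The promoters of the 3 genes that passed the test are given here, so that the changed members can be seen beside what lies upstream of them. Each is the stretch of 250 bases before the transcript start used by the RefSeq promoter record (build GRCm38.p6), read 5′ to 3′ on the strand of the gene. For Igfbp3 and Igfbp4 that start lies inside the span annotated for the gene, which begins further upstream. Capitals mark every match to the 8 motifs searched, on both strands, which could overlap. The motifs of the general start machinery were the TATA box, searched as TATAAA, a stretch of alternating bases, searched as TATATA, the GC box, searched as GGGCGG, and the box known by its letters CCAAT. Those of signal-dependent factors were the AP-1 site, searched with the letters TGACTCA, the core bound by forkhead factors, searched with the letters GTAAACA, the E-box, searched with the letters CACGTG, and the site of STAT factors, searched with the letters TTCNNNGAA. Igfbp3 lies at chr11:7213924-7214173 on the minus strand, Igfbp4 at chr11:99040994-99041243 on the plus strand and Igfbp6 at chr15:102143936-102144185 on the plus strand.
Igfbp3: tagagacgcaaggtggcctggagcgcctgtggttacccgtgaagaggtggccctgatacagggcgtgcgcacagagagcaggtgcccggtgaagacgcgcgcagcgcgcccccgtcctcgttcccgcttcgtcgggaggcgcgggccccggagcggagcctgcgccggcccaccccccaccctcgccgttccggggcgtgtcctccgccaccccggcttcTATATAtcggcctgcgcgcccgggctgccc
Igfbp4: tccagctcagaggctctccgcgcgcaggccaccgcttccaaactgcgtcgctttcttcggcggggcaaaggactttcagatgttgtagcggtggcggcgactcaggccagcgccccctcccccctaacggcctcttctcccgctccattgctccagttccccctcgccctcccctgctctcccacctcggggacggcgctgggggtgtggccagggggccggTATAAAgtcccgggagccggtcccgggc
Igfbp6: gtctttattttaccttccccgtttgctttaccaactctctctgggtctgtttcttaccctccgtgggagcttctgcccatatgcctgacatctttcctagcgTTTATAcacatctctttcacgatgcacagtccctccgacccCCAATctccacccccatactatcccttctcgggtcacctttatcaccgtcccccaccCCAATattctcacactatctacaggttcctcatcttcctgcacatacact

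The 2 genes that rose share a guanine- and cytosine-rich promoter with a TA-rich stretch close to the start. In Igfbp4 a TATAAA begins 28 bases before the start, and in Igfbp3 a TATATA begins 30 bases before it. The promoter of Igfbp6, which fell, has a TTTATA, the reverse complement of the TATA box, 148 bases before the start and CCAAT at 107 and 50 bases. The upstream stretch was 69.2% G and C in Igfbp4 and 73.2% in Igfbp3, against 49.6% in Igfbp6 and a median of 52.4% over 32851 promoter records. Of all these records 12.4% hold TATAAA or its reverse complement, 5.25% hold TATATA and 33.8% hold CCAAT or its reverse complement. None of the other 5 motifs was found in the 3 promoters, in windows where 32.7% of all records hold the GC box, 4.46% the AP-1, 3.17% the forkhead, 6.02% the E-box and 7.02% the STAT letters. Of the 14 records of the 10 genes, those of Igf1r (77.6%) and Igfbp7 (74.0%), which did not pass the test, held the most G and C. These matches describe letters only, and no binding was measured.

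IGF1, the main growth factor of the family after birth, was read at log2 signals of 11.95 and 12.00 in nonarthritic pools 1 and 2 and 12.38 and 12.03 in arthritic pools 1 and 2. Both arthritic pools stood above both nonarthritic pools, but the margin of arthritic pool 2 was smaller than the gap between the arthritic pools. The log2 fold change of Igf1 (arthritic minus nonarthritic, as everywhere below) was 0.23 ± 0.18 (SE; 95% confidence interval -0.18 to 0.64, limma adjusted p = 0.451). Leaving out arthritic pool 1 gave 0.055 and leaving out arthritic pool 2 gave 0.405, neither of which passed. The interval covers no change and a rise of up to 0.64 on the log2 scale.

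Igf2, the growth factor of the fetus, whose gene is imprinted and expressed from the paternal copy, gave log2 signals of 9.76 and 9.69 in the nonarthritic pools. The arthritic pools 1 and 2 lay on either side of these, at 10.04 and 9.34. The difference was -0.035 ± 0.23 (SE; 95% interval -0.57 to 0.50, limma adjusted p = 0.945), and it turned sign with the arthritic pool left out: -0.385 without pool 1 and 0.315 without pool 2. The arthritic pools thus differed from each other by more than the groups did.

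Igf1r, the receptor for both ligands, gave log2 signals of 10.07 and 9.89 in nonarthritic synovium and 9.94 and 10.01 in arthritic synovium. The groups overlapped, and the difference of -0.005 ± 0.16 (SE; limma adjusted p = 0.988) had a 95% interval of -0.37 to 0.36.

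Igfbp4, a secreted binding protein that holds IGF away from its receptor and is made by fibroblasts and bone cells, showed the largest rise. Its log2 signal was 12.18 and 11.88 in nonarthritic pools 1 and 2 and 13.17 and 13.00 in arthritic pools 1 and 2. All arthritic values lay above all nonarthritic values. The change was 1.055 ± 0.18 (SE; 95% interval 0.65 to 1.46, limma adjusted p = 0.00616), from a group mean of 12.03 ± 0.21 to 13.09 ± 0.12 (SD, n = 2 pools). With only 3 arrays the call held without nonarthritic pool 1 (1.205, adjusted p = 0.0445) and was lost without nonarthritic pool 2 (0.905, 0.107), and in the arthritic group without pool 1 (0.97, 0.105) or without pool 2 (1.14, 0.104).

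Igfbp3, the main carrier of IGF in blood and a product of many connective tissue cells, gave 10.48 and 10.16 in the nonarthritic pools and 11.37 and 10.86 in the arthritic pools. The groups did not overlap, although arthritic pool 2 was 0.51 below arthritic pool 1. Igfbp3 rose by 0.795 ± 0.21 on the log2 scale (SE; 95% interval 0.30 to 1.29, limma adjusted p = 0.0425), which is close to the threshold. The call was lost with quantile normalization repeated (0.72, adjusted p = 0.0557). It was also lost with any array left out: the log2 fold change was then 0.955 and 0.635 without nonarthritic pools 1 and 2 and 0.54 and 1.05 without arthritic pools 1 and 2, with adjusted p from 0.117 to 0.316.

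Igfbp6, a binding protein that prefers IGF2 to IGF1, was the only member of the 10 to fall. It was read at 12.55 and 12.38 in nonarthritic pools 1 and 2 and at 11.76 and 11.00 in arthritic pools 1 and 2. All arthritic values were below all nonarthritic values, and the arthritic pools were 0.76 apart, the widest gap between pools of either group among the 10 genes. The change was -1.085 ± 0.25 (SE; 95% interval -1.66 to -0.51, limma adjusted p = 0.0229). It was -1.465 without arthritic pool 1, where it still passed (adjusted p = 0.0474), and -0.705 without arthritic pool 2 (0.163), -1.0 without nonarthritic pool 1 (0.172) and -1.17 without nonarthritic pool 2 (0.202).

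**Figure D2:**
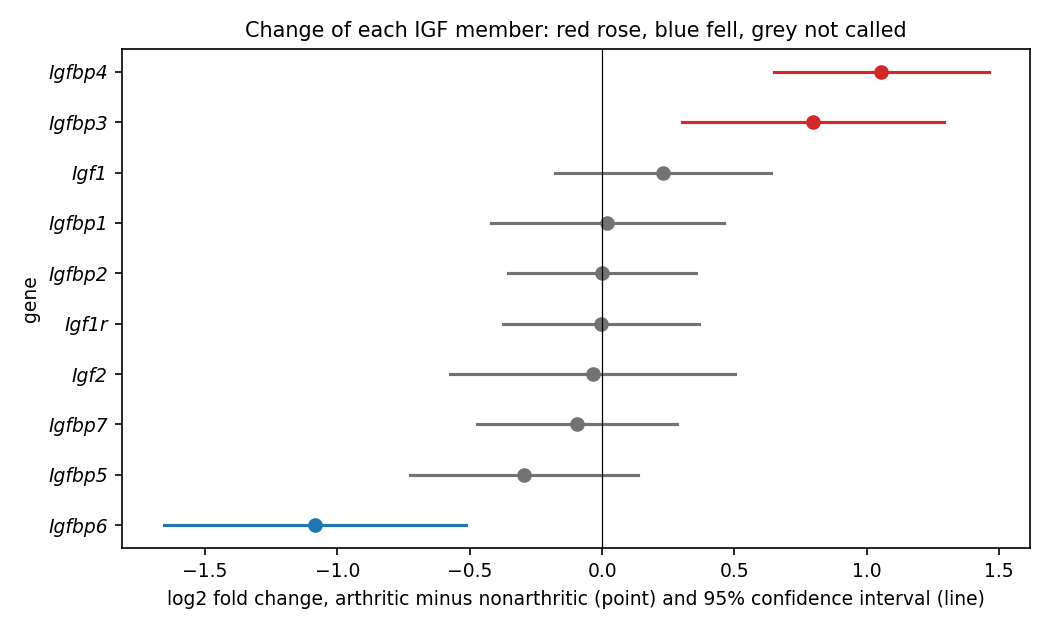
Log2 fold change of each of the 10 genes (point) with its 95% confidence interval from limma (line), red for genes that rose, blue for the gene that fell and grey for genes that did not pass. The intervals of Igfbp4 and Igfbp3 lie above 0, that of Igfbp6 lies below 0, and the other 7 cross it.

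The remaining binding proteins did not pass the test. Igfbp5, which binds to matrix and bone and is cut by several proteases, gave log2 signals of 13.06 and 13.02 in nonarthritic synovium and 12.96 and 12.53 in arthritic synovium. Its pools did not overlap, but the difference of -0.295 ± 0.19 (SE; 95% interval -0.73 to 0.14) had a limma adjusted p of 0.352, and it shrank to -0.08 without arthritic pool 2. Igfbp7, which binds IGF weakly and is abundant in vessel walls, gave 13.59 and 13.58 in nonarthritic pools and 13.61 and 13.37 in arthritic pools. Its groups overlapped, with a difference of -0.095 (95% interval -0.47 to 0.28, limma adjusted p = 0.766).

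Igfbp2, a binding protein of the circulation and of fat, gave 7.13 and 7.09 in nonarthritic and 7.08 and 7.14 in arthritic pools, and the group means were equal (95% interval of the difference -0.35 to 0.35). Igfbp1, a liver protein that insulin represses, gave 5.96 and 6.40 in nonarthritic and 6.14 and 6.26 in arthritic pools (difference 0.02, 95% interval -0.42 to 0.46). Both were dim. Olfactory receptor genes, which joint tissue is not known to use, served as a guide to background: 85.0% of these 1105 genes had a mean signal at or below that of Igfbp1, and 96.0% at or below that of Igfbp2. For Igfbp1 a change below background could not have been seen, while the other 8 members stood above all olfactory receptor genes.

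Some genes of the family lie side by side. Igfbp1 and Igfbp3 are neighbours on mouse chromosome 11 with no annotated gene between them in RefSeq, and Igfbp3 rose while Igfbp1 read 0.02. Igfbp2 and Igfbp5 are such neighbours on chromosome 1, and their differences were 0 and -0.295. These differences between neighbours were not tested.

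Pools of the arthritic group differed in these genes. Arthritic pool 2 read lower than arthritic pool 1 for 7 of the 10 genes, with a median gap of -0.295 on the log2 scale, while over all genes 48.9% read lower and the median gap was 0. The 7 were both ligands and Igfbp3 to Igfbp7. Arthritic pool 2 also read lower for 12 of 12 endothelial, 10 of 10 mural and 12 of 17 synovial fibroblast markers. It did so for 13 of 15 chondrocyte, 14 of 15 skeletal muscle, 7 of 9 osteoblast and 9 of 12 adipocyte markers. Only 2 of 12 neutrophil, 7 of 16 macrophage, 2 of 10 hepatocyte and 3 of 7 keratinocyte markers were lower. Between the nonarthritic pools, pool 2 read lower for 14 of 17 fibroblast, 12 of 15 chondrocyte and 11 of 16 macrophage markers. The same held for 9 of 12 endothelial, 7 of 9 osteoblast and 6 of 12 adipocyte markers. It held for 5 of 12 neutrophil, 4 of 10 hepatocyte and 2 of 7 keratinocyte markers. Of mural markers 3 of 10 were lower, and of skeletal muscle markers 0 of 15. Nonarthritic pool 2 read lower than nonarthritic pool 1 for 8 of the 10 genes, by a median of only 0.055, against 53.9% of all genes.

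Several proteases that cut the binding proteins rose. Of 18 genes for proteases of the binding proteins and for regulators of those proteases, 7 rose and none fell in limma. At an unadjusted p under 0.05 in limma 10 were higher and 2 lower, against 3640 and 2823 of all 22180 genes. The list had a median log2 fold change of 0.51 against 0.005 for all genes, of which 8.72% rose and 6.62% fell. Of the 18 genes 5 had a mean at or below the 95th percentile of olfactory receptor genes. Pappa2 and Klk1, which rose, were among these 5. With a trended prior, quantile normalization repeated or dim genes filtered out, 1 gene of this list fell. The 4 largest rises were Mmp9 (3.84 ± 0.32 SE), Adam12 (3.265 ± 0.24), Mmp3 (2.61 ± 0.32) and Pappa (2.03 ± 0.17). Adam12, a membrane metalloproteinase known to cut IGFBP3 and IGFBP5, read 8.08 and 7.35 in nonarthritic and 10.97 and 10.99 in arthritic pools (limma adjusted p = 0.000215). Mmp9 and Mmp3 act on many matrix proteins besides, and their nonarthritic pools stood over 1 log2 unit apart. With nonarthritic pool 1 or 2 left out 4 or 3 of these genes rose, and with arthritic pool 1 or 2 left out 3 or 0 did (limma; 7 to 10 were higher at an unadjusted p under 0.05 in these 4 fits).

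Pappa encodes pappalysin 1, the protease that cuts IGFBP4 and so frees the IGF bound to it. Its log2 signal was 7.43 and 7.16 in nonarthritic pools and 9.27 and 9.38 in arthritic pools, so that it rose 4.08-fold (limma adjusted p = 0.000358). Its value in nonarthritic pool 2 was below the 95th percentile of olfactory receptor genes on that array, 7.36, so the base of this fold is not clearly above background. The groups were far apart compared with the gap between pools, and the log2 fold change stayed between 1.90 and 2.17 with any array left out, passing in all cases but 1 (1.975, adjusted p = 0.0552, without arthritic pool 2). The transcripts of both Igfbp4 and the protease that cuts it were higher in arthritic synovium, while protein and cleavage were not measured.

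Pappa2, Stc1, Stc2 and Htra1 were singled out after their values were seen, because they act on the same step. Pappa2, a relative that cuts IGFBP3 and IGFBP5, rose from 5.58 and 5.65 to 6.60 and 6.53 (0.95 ± 0.15, limma adjusted p = 0.00565). Its signals lie within the range of olfactory receptor genes, and how far background sets this value was not tested. The stanniocalcins, which block pappalysins, did not pass: Stc1 gave 7.14 and 6.98 against 8.16 and 7.35 (0.695 ± 0.26, adjusted p = 0.114) and Stc2 gave 8.34 and 8.34 against 7.85 and 8.0 (-0.415 ± 0.16, adjusted p = 0.121) in limma. Htra1, a serine protease that cuts IGFBP5, read 0.31 ± 0.17 (limma adjusted p = 0.285).

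**Figure D3:**
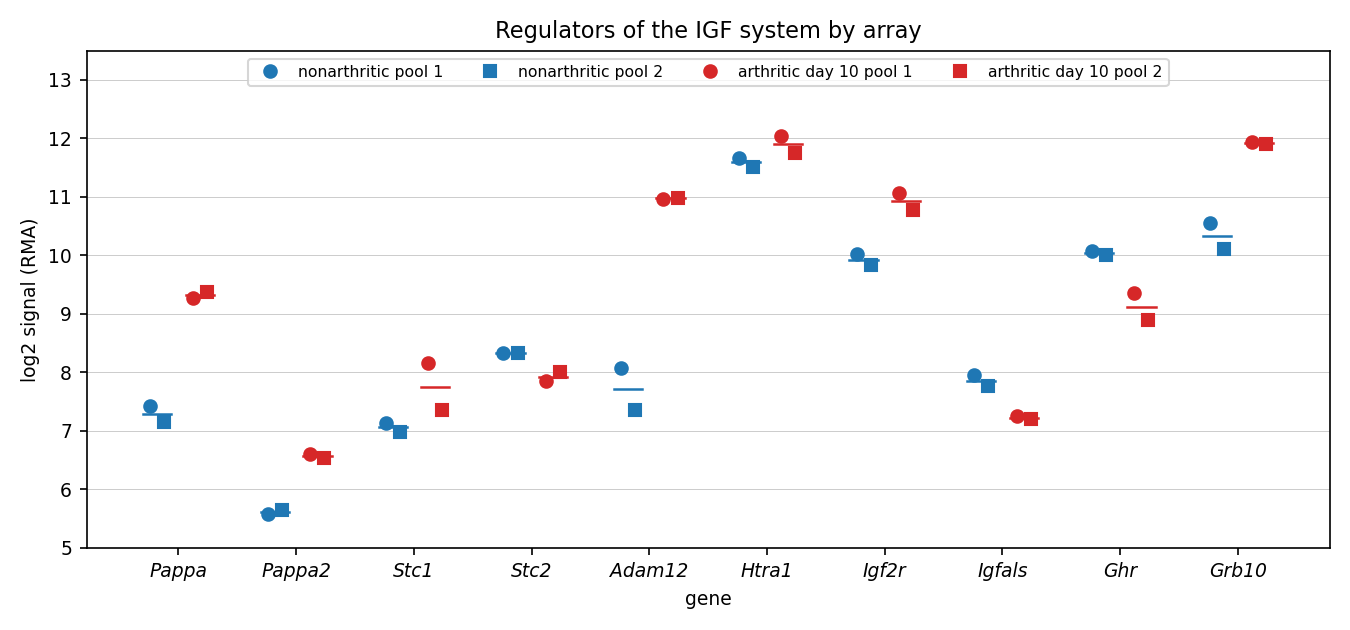
Log2 signal (vertical axis) of 10 regulators of the IGF system on the 4 arrays, with the same symbols as for the 10 members and a line at each group mean. Pappa, Pappa2, Stc1, Adam12, Htra1, Igf2r and Grb10 stand higher in both red arthritic pools, and Stc2, Igfals and Ghr stand lower. Of these Stc1, Stc2 and Htra1 did not pass the test, and the arthritic pools of Stc1 read 8.16 and 7.35.

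Receptors and carriers related to the family changed in 3 of 11 measured cases, or 27.3%, against 15.3% of all genes, dim ones included. Igf2r, which clears IGF2 from the cell surface and sorts lysosomal enzymes, read 10.02 and 9.84 in nonarthritic and 11.07 and 10.78 in arthritic pools and rose by 0.995 ± 0.17 (SE, limma adjusted p = 0.0080). Itga5, a fibronectin receptor chain, rose by 1.12 on the log2 scale. Igfals, the subunit that joins IGF and IGFBP3 into the long-lived complex of blood, read 7.95 and 7.76 against 7.25 and 7.20 and fell by 0.63 on the log2 scale (adjusted p = 0.0342). The insulin receptor Insr was at 0.07 (95% interval -0.33 to 0.47). The call of Igfals was lost with median-centred arrays (-0.535, adjusted p = 0.0857) and with quantile normalization repeated (-0.55, adjusted p = 0.0510) in limma. With any array left out, neither Igf2r (0.85 to 1.14) nor Igfals (-0.725 to -0.535) passed. The list then had 1 rise without nonarthritic pool 1 and no other call (limma; 2 to 3 higher and 1 lower at an unadjusted p under 0.05 in the 4 fits).

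Proteins that resemble the binding proteins in part moved both ways, with 2 of 10 rising and 2 falling and a median of -0.02. Their share of calls was 40%, against 15.3% of all genes, dim ones included. Ccn4 rose by 2.175 ± 0.24 and Ccn5 by 0.64 ± 0.16 on the log2 scale (SE). Ccn3 and the connective tissue growth factor Ccn2 fell by 1.465 ± 0.30 and 1.13 ± 0.15. Without nonarthritic pool 1 the list had 1 rise and 1 fall, without arthritic pool 1 it had 1 fall, and without either of the remaining arrays it had no call (limma; 2 to 3 higher and 2 to 4 lower at an unadjusted p under 0.05 in the 4 fits). These matricellular genes carry a domain like that of the IGF binding proteins. Of the genes for RNA-binding proteins of Igf2 mRNA 1 of 3 was measured, Igf2bp3 (0.225, limma adjusted p = 0.457).

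In the growth hormone axis, which drives Igf1 in liver, 2 of 11 genes rose and 1 fell, with a median of 0.095. Calls thus made up 27.3% of the axis, against 15.3% of all genes, dim ones included. The growth hormone receptor Ghr read 10.07 and 10.01 in nonarthritic and 9.35 and 8.90 in arthritic pools and fell by 0.915 ± 0.19 on the log2 scale (SE, limma adjusted p = 0.0158). The cytokine signal inhibitors Socs3 (1.105) and Socs1 (0.83) rose. The kinase Jak2, which the receptor uses, was at -0.02 (95% interval -0.38 to 0.34). With any array left out, Ghr did not pass (-1.14 to -0.69), and the axis had 1 rise without nonarthritic pool 1 and no other call (limma; 2 to 3 higher and 1 lower at an unadjusted p under 0.05 in the 4 fits).

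Downstream of the receptor, adaptors and PI3K-AKT genes rose in 3 of 27 cases and fell in 3, with a median of 0.025. That is 22.2% called, against 15.3% of all genes, dim ones included. With dim genes filtered out 4 rose and 4 fell, against 2345 and 1586 of 13804 genes. The rises were the leukocyte PI3 kinase Pik3cd (1.255), the regulatory subunit Pik3r3 (0.985) and Akt1 (0.705). The transcription factor Foxo1, which AKT keeps out of the nucleus, read 11.70 and 11.57 against 10.72 and 10.37 and fell by 1.09 on the log2 scale. The regulatory subunit Pik3r1 fell by 1.055 and the receptor substrate Irs2 by 0.605. With nonarthritic pool 1 left out 1 adaptor or PI3K-AKT gene rose and none fell, and with any other array left out none passed (limma; 3 to 5 higher and 3 to 6 lower at an unadjusted p under 0.05 in the 4 fits).

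Genes that brake the signal had 5 rising and no falling members of 13 (limma; 7 higher and 0 lower at an unadjusted p under 0.05), with a median of 0.575. Of all 22180 genes 8.72% rose, and 3640 were higher at an unadjusted p under 0.05 in limma. Only without nonarthritic pool 1 (3 rises) and without arthritic pool 1 (1 rise) did brakes still rise; none passed without nonarthritic pool 2 or arthritic pool 2 (limma; 5 to 7 higher at an unadjusted p under 0.05 in the 4 fits). Grb10, an adaptor that dampens insulin and IGF receptors, read 10.55 and 10.11 against 11.94 and 11.91 and rose 3.02-fold (limma adjusted p = 0.00136), a call kept without nonarthritic pool 1 (adjusted p = 0.0232) and lost without nonarthritic pool 2 (0.0511), arthritic pool 1 (0.0649) or the other arthritic pool (0.0838). Ddit4 (1.475) and Sesn2 (1.355), which restrain the growth kinase mTOR, the phosphatase Ptpn1 (0.885) rose too, as did the adaptor Sh2b2 (0.685), named after its value was seen.

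Igf2 belongs to a network of imprinted genes that are active together in growing tissue. Of 12 measured genes of this network 3 rose and 1 fell, with a median of 0.34, and Igf2 itself did not pass. This share of 33.3% stands beside 15.3% of all genes, dim ones included. Mest read 10.30 and 10.16 in nonarthritic and 12.25 and 11.84 in arthritic pools and rose 3.52-fold (limma adjusted p = 0.000764). Peg3 (1.57 ± 0.31 SE) and the zinc finger gene Plagl1 (1.18 ± 0.24) also rose, with arthritic pools 0.92 and 0.71 apart, and Nnat fell by 1.265 on the log2 scale. The network had 1 rise and 1 fall once nonarthritic pool 1 was left out, no call without nonarthritic pool 2, and 1 rise without either arthritic pool (limma; 3 to 5 higher and 1 lower at an unadjusted p under 0.05 in the 4 fits).

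**Figure D4:**
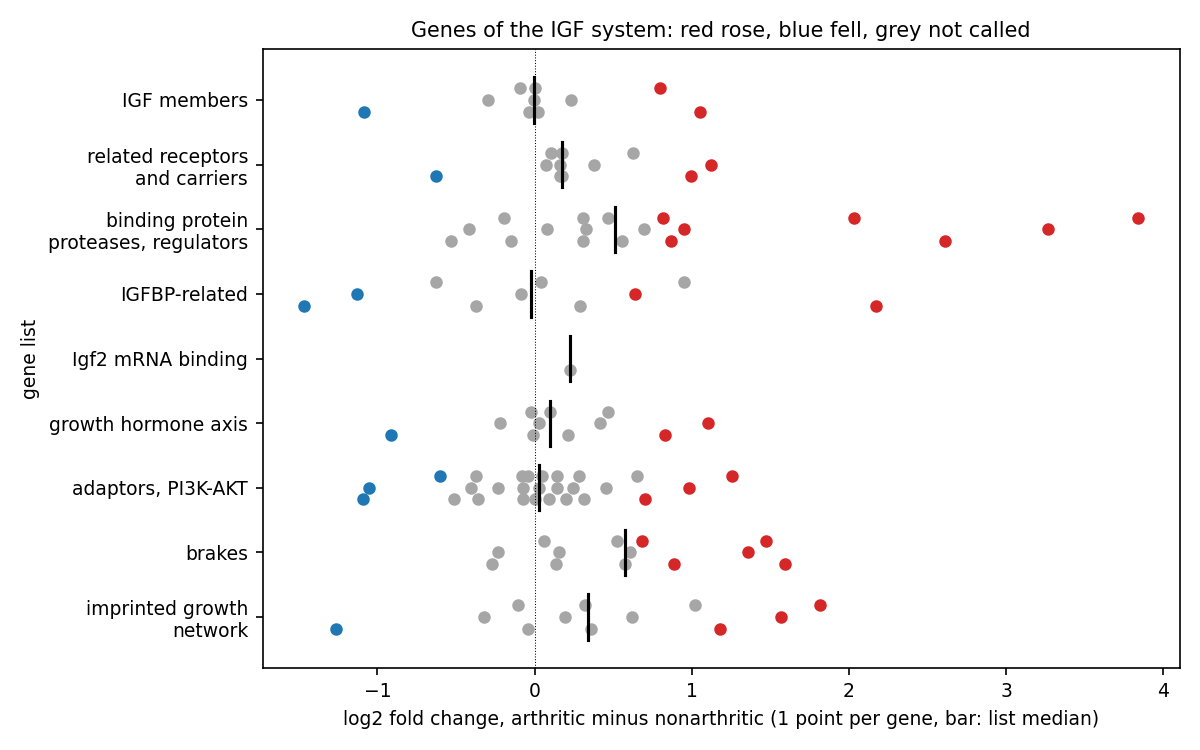
Log2 fold change (horizontal axis) of each gene in the member set and in 8 lists of the IGF system, 1 point per gene, red for genes that rose, blue for genes that fell and grey for genes that did not pass, with a black bar at the list median. The proteases and the brakes have red points and no blue ones, with medians of 0.51 and 0.575, while the members have 2 red and 1 blue point.

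Over the 8 lists together, 24 of 103 measured genes rose and 8 fell, or 31.1%, against 15.3% of all genes. Of the 103 genes 13 had a mean signal at or below the 95th percentile of olfactory receptor genes. Of all 22180 genes 8389 were that dim, so the shares of calls are not like for like. Among the 13804 genes left by a filter on dim genes, 2345 rose and 1586 fell, and of the list genes 26 and 11 did. Unfiltered, 3640 of all genes were higher and 2823 lower at an unadjusted p under 0.05 in limma. These lists were chosen with earlier results of these data known, and their unfiltered count was 24 rises and 8 falls. The count depended on every array: with nonarthritic pools 1 and 2 left out in turn 12 and 3 genes rose, and with arthritic pools 1 and 2 left out 5 and 1 rose. The falls were 2, 0, 1 and 0 in the same order. At an unadjusted p under 0.05 in limma the rises were 30, 24, 27 and 35 and the falls 9, 12, 13 and 9, against 36 and 13 with all arrays.

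Markers of several cell types moved along with these genes, and in bulk tissue fewer cells of a type and less RNA per cell cannot be told apart. Synovial fibroblast markers, for the labelled tissue, were present: none of 17 had a mean at or below the 95th percentile of olfactory receptor genes, and their summed linear signal was 62419 to 68466 in nonarthritic and 72387 to 75948 in arthritic pools. Of these 7 rose, with Cdh11 at 1.70, and 5 fell, with Clic5 at -2.48, Col6a5 at -1.995 and Htra4 at -1.885. The lubricin gene Prg4 was at -0.265. Skeletal muscle markers fell in 14 of 15 cases, with summed signals of 41226 and 53556 in nonarthritic and 7106 and 5273 in arthritic pools, and adipocyte markers fell in 11 of 12 cases, with 31094 and 30304 against 7879 and 5738. Fat and muscle are among the tissues that express Ghr, Irs2, Foxo1 and Pik3r1, and the part of these markers in the falls of those genes was not tested.

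Neutrophil markers rose in 7 of 12 cases, and their summed signal went from 1613 to 2005 in nonarthritic to 12145 to 13874 in arthritic pools; Pik3cd and Mmp9 are known in such cells. Macrophage markers, for a known local source of Igf1, rose in 3 and fell in 5 of 16 cases. Their sums were 45378 to 47164 against 32626 to 34181. Cd14 (0.85), Cd68 (0.69) and C1qa (0.59) rose, while Lyve1 (-2.59), Vsig4 (-2.065), Timd4 (-1.795), Cd163 (-1.49) and Folr2 (-1.275) fell. A linear sum follows its brightest genes, and Lyve1 read 13.03 and 13.04 in nonarthritic and 10.95 and 9.94 in arthritic pools. Endothelial markers rose in 2 of 12 cases, with sums of 15347 to 16184 against 16338 to 20521. Mural cell markers fell in 3 of 10, with 25367 to 27609 against 16238 to 21039. Of 15 chondrocyte markers 6 rose and 4 fell, with sums of 26031 to 29378 against 16826 to 21096. Among these Chad (-3.615) and Cytl1 (-3.51) fell most, and Col11a1 (2.395), Matn3 (2.305) and Acan (2.025) rose most. Of 9 osteoblast markers 5 fell, with sums of 7121 to 7720 against 1956 to 4387.
Hepatocyte markers, for the main source of Igfbp1 and Igfals in the body, were mostly dim: 6 of 10 were at or below the 95th percentile of olfactory receptor genes, 2 fell, and their sums were 1371 to 1402 against 1055 to 1128. Of 7 keratinocyte markers 4 were that dim and 1 fell, with sums of 966 to 1004 against 910 to 958. The part of any of these cell types in the changes of Igfbp3, Igfbp4 and Igfbp6 was not tested.

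The genes most like Igfbp4 over the 4 arrays, by the smallest Euclidean distance between values centred on each gene's mean, were Ppil1 (0.03), Rac3 (0.05) and Cdc45 (0.05). Those most like Igfbp6 were Zfp945 (0.07), 1700096K18Rik (0.10) and Scara5 (0.10). Scara5, a ferritin receptor, read 10.48 and 10.19 in nonarthritic and 9.70 and 8.92 in arthritic pools. With 4 arrays such likeness is a description of these pools.

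**Figure D5:**
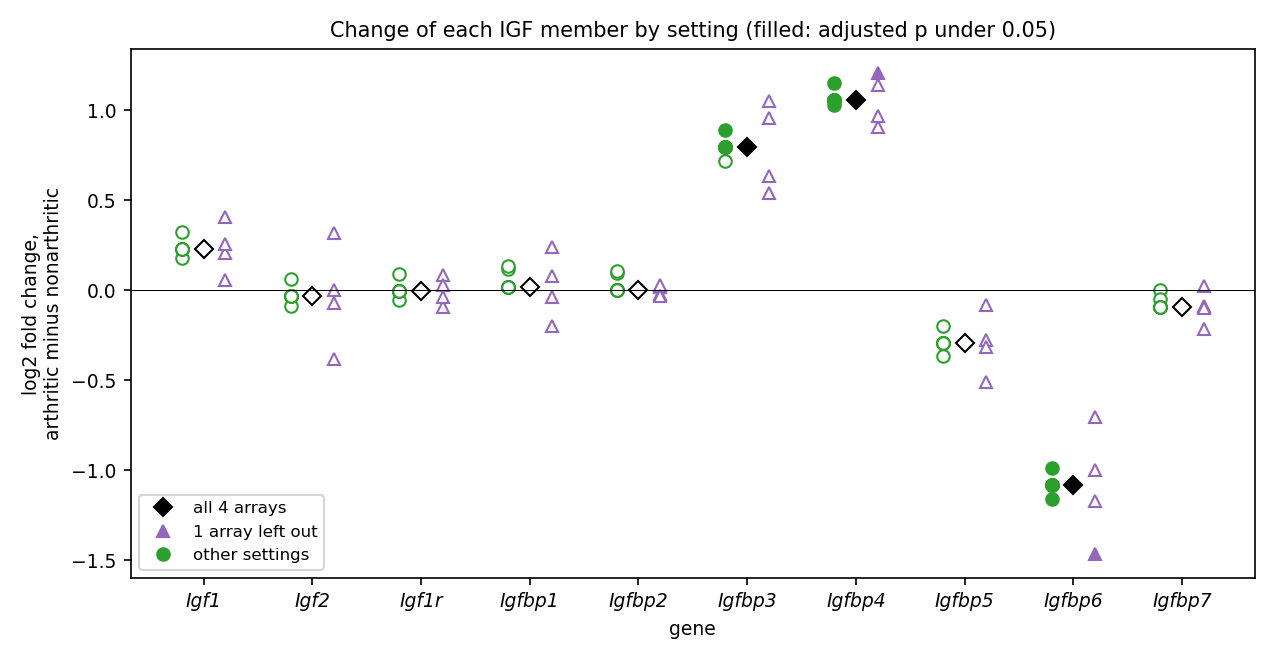
Log2 fold change (vertical axis) of each of the 10 genes with all 4 arrays (black diamond), with 1 array left out (purple triangles) and under the other settings (green circles), filled where the adjusted p was under 0.05. Igfbp4 keeps a positive and Igfbp6 a negative change at every setting, but only 1 triangle of each is filled, and no triangle of Igfbp3 is.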

How the data were processed

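The deposited values are log2 signals that the authors made, 1 per probe set and array, with 2 decimals, from 2.89 to 14.27. RMA, Affymetrix Power Tools and Affymetrix Expression Console (RMA is background correction, normalization between arrays and summary per probe set) are listed per the submitters' processing notes, with no versions, settings or genome build. That the scale is log2 was read from the range of the values. Array medians over 41345 probe sets were 6.96 to 7.15. The number of arrays limits the precision.

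Of the probe sets, 23521 have 1 gene symbol in the platform table, 1814 have several and 16010 have none. Where a gene had several, the brightest on average was kept, leaving 22180 genes. Groups were compared with limma 3.58.1 in R 4.3.3 (lmFit, eBayes with a constant prior, 2-sided, no block; 2 residual and 5.98 prior degrees of freedom), and p-values were adjusted by Benjamini-Hochberg over all genes. They measure the spread between pools, which the series' design text calls biological replicates. On simulated arrays with 22180 genes the fit recovered 86% of changes of 1 log2 unit and 100% of changes of 2. The simulation gave every gene the same spread and changed 200 genes. Real genes differ in spread, so these shares are not the power of the real comparison.

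By rule the named genes are the 10 members and up to 4 called genes per direction in each of 8 lists. Of each of 11 cell types the rule takes up to 3 markers with the largest absolute log2 fold change. For most of these types no marker was named. The 3 genes most like the largest rise and the largest fall are named too. Insr, Jak2, Klk1 and some cell type markers, such as Prg4, Cdh11 and several of macrophages, were named outside this rule. Members and lists were chosen with earlier results of these data known. Of the genes in the 8 lists 8, among them Igf2bp1, Igf2bp2 and H19, were not analysed here, nor were Bglap2, Cfd and Krt5 of the cell type lists. Promoters are RefSeq records of GRCm38.p6; all 10 members matched. Alternatives covered a block by pool number, each array left out, other priors, scalings and probe set rules, and a filter on dim genes.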

Additional observations from a re-analysis of the deposited data

How the results depend on the processing

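Igfbp4 and Igfbp6 kept their direction under all 12 alternatives, and Igfbp3 did too; their calls held in 8, 8 and 7 of the 8 alternatives that use all 4 arrays. Among the members 2 genes rose and 1 fell under each of these 8, except that only 1 rose with quantile normalization repeated. Igfbp1 could not be tested under the dim-gene filter, which removes it. With an array left out, between 0 and 1 members rose and between 0 and 1 fell (limma; 1 to 2 higher and 1 to 2 lower at an unadjusted p under 0.05). The genes of the 8 lists then had 1 to 12 rises and 0 to 2 falls, and all genes had 47 to 637 rises and 105 to 584 falls. A lone pool of a group is assumed there to vary like the other group, and fewer arrays leave less power.

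The pools share only a number across groups: deviations of pools 1 from their group means correlated at 0.18 over genes, with 2 pairs. With pool number as a replicate block 5 list genes fell in place of 8 and 1216 of all genes rose in place of 1933, with fewer residual degrees of freedom; none of the 10 members changed its call, and Igfals lost its call (adjusted p = 0.0574). Of all calls 56.8% were rises, against 67.1% with median-centred arrays, where the median log2 fold change of all genes was 0.10 in place of 0.005.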

Other observations

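The Igf2 locus holds further transcripts, named here after their values were seen. Mir483, a microRNA gene within Igf2, gave log2 signals of 8.89 and 8.99 in nonarthritic pools 1 and 2 and 8.33 and 9.30 in arthritic pools 1 and 2 (difference -0.125, limma adjusted p = 0.831). Its arthritic pools lay on either side of the nonarthritic ones, as those of Igf2 did, but in the opposite order. Igf2os, the antisense transcript, gave 6.19 and 6.31 against 6.51 and 6.74 (0.375, limma adjusted p = 0.18), and the neighbouring insulin gene Ins2 gave 5.26 and 5.87 against 5.53 and 5.92 (0.16, limma adjusted p = 0.724). Signals of Igf2os and Ins2 lie within the range of olfactory receptor genes. Because Igf2 and Igf2os overlap, probes of opposite strands were needed to separate them, and how far the probe sets do so was not tested.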
